A study of Homo sapiens with 6 samples.

Results

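The AP-1 and immediate early transcription factors considered here are 10 genes, FOS, FOSB, FOSL1, FOSL2, JUN, JUNB, JUND, ATF3, EGR1 and MYC. They were found by symbol in the probe annotation, which named a probe set for 10 of 10, and they are 10 of 14884 genes measured by name. The arrays came from MDA-MB-231, an established line of human breast carcinoma cells grown in Dulbecco's medium with serum. Control cells and cells with a knockout (KO) of NR1D1 were all treated with H2O2 at 200 µM for 72 h, and 3 arrays of total RNA were deposited for each genotype. NR1D1 encodes the heme-binding nuclear receptor REV-ERBα, a repressor within the circadian clock, and the comparison shows how knockout cells differ from control cells when both are under peroxide. No untreated array was analysed here, so a response to peroxide cannot be told apart from a difference present before it. The labels call the arrays biological replicates but do not say whether the knockout is 1 clone or a pool, how it was made, or whether replicates were separate cultures, so the p-values rest on the spread among these arrays, part of which may be technical.

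AP-1 is a dimer of basic leucine zipper (bZIP) proteins. A Jun protein (JUN, JUNB or JUND) pairs with another Jun, with a Fos protein (FOS, FOSB, FOSL1 or FOSL2) or with an ATF protein such as ATF3. The dimer binds sites of the form TGANTCA or, more often for ATF-containing dimers, TGACGTCA. FOS, JUNB, EGR1, ATF3 and MYC are known as immediate early genes, whose transcription rises within minutes of growth factors or stress without new protein synthesis and then falls again. In breast carcinoma cells of the mesenchymal, triple-negative kind, FOSL1 and JUN are known for driving invasion genes. All arrays here were taken at 72 h.

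The promoters of the 3 Jun genes and of EGR1 are shown because JUNB and JUND were lower in knockout cells, JUN did not pass the test, and EGR1 was higher. Each line gives the 250 bases before the RefSeq transcription start, 5′ to 3′ on the gene's strand, in lower case with motif matches in capitals. The sequences are from RefSeq on GRCh38.p14, whose promoter table held 8 of the 10 genes. JUNB lies on the plus strand at chr19:12791236-12791485, JUND on the minus strand at chr19:18281623-18281872, JUN on the minus strand at chr1:58784048-58784297 and EGR1 on the plus strand at chr5:138465229-138465478, all 4 intervals in the flank upstream of the gene.
JUNB: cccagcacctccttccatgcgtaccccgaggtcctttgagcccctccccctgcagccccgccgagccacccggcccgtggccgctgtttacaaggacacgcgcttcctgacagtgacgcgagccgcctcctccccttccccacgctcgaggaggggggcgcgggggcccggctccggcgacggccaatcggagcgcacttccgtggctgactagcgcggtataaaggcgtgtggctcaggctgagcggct
JUND: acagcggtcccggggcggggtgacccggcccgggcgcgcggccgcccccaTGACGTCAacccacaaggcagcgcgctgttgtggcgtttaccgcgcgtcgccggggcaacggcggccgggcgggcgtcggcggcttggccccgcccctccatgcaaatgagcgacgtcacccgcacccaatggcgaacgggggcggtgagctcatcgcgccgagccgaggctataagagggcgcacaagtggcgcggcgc
JUN: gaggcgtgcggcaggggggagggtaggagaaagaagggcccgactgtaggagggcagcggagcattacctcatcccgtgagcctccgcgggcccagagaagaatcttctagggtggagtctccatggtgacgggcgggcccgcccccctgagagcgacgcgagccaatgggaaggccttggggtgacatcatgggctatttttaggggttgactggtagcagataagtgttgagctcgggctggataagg
EGR1: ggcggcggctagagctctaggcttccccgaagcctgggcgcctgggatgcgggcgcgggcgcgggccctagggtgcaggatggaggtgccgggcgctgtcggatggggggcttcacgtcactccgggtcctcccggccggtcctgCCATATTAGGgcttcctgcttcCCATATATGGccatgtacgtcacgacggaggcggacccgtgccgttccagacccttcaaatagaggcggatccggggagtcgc
The motifs searched, on both strands, were TGANTCA (the form of the AP-1 site), TGACGTCA (the cyclic AMP response element), CACGTG (the E-box that MYC with MAX binds), AGGTCA (the core that REV-ERBα and other nuclear receptors bind), the CArG box of serum response factor and the κB site. In TGANTCA, N stood for any base, so its matches need not all be sites that AP-1 binds. JUND held TGACGTCA, starting 200 bases before the transcription start, a motif found in 1.65% of the 35093 RefSeq promoter windows of this length. EGR1 held CArG boxes, CCATATTAGG starting 105 bases and CCATATATGG starting 83 bases before its start, and 1.16% of windows held any CArG box. ATF3 has 2 windows, of which 1 held AGGTCA, a motif present in 12.1% of windows. No full match to any of the 6 motifs was found in the windows of JUNB, JUN, FOS, FOSB and FOSL2, and no matches overlapped. Near matches were not counted, such as tgacatca in the JUN window, which resembles TGACGTCA. The shares of windows with a match were 6.57% for TGANTCA, 6.34% for CACGTG and 9.95% for the κB site. G and C made up 70.8% of the JUNB window, 74.8% of the JUND window, 62% of the JUN window and 68.4% of the EGR1 window, against a median of 58% over all windows. These matches describe letters in a short window and say nothing of binding in these cells.

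The deposited values run from 1.16 to 13.75 and were taken as log2 on that basis. Array medians lay between 5.18 and 5.22, a log2 change had a standard error of 0.101 at the median gene, and the number of arrays limits the precision. NR1D1 had no named probe set, so the knockout was not checked from its own transcript. Of the markers of this mesenchymal line, AXL, MSN, EGFR, CD44, VIM and ZEB1 were measured, with means over the 6 arrays from 8.05 (ZEB1) to 11.93 (AXL). PGR (4.02), FOXA1 (5.01) and ESR1 (5.19), which this hormone-receptor-negative line is known to lack, read below or near the array medians, but no detection calls were at hand. The other measured markers of luminal or hormone-receptor-positive breast read above the array medians. They were KRT8 (6.74), GATA3 (7.11), EPCAM (7.42), KRT19 (8.36) and KRT18 (9.42). Markers of luminal epithelium moved with genotype, with KRT18, KRT19 and EPCAM 3 of 8 that rose and GATA3 the 1 that fell. CD68 fell as 1 of 4 leukocyte markers, at a mean over the 6 arrays of 10.65 against 6.34 (NKG7), 4.81 (CD14) and 4.20 (LYZ). KDR rose as 1 of 3 endothelial markers, and CD44 fell while VIM rose among the 6 markers of the line. These calls were 50% of the luminal, 25% of the leukocyte, 33.3% of the endothelial and 33.3% of the line's markers. Among all genes 9.49% were called. None of 2 fibroblast markers passed the limma test (adjusted p of 0.752 for LUM and 0.922 for DCN). Of the markers called, GATA3 and KDR passed without any 1 array and the other calls in 0 to 3 of the 6 fits with 1 array left out. The mean log2 value of the 8 luminal markers was 6.59 to 6.64 on control and 6.67 to 6.74 on knockout arrays, that of the 4 leukocyte markers 6.52 to 6.66 and 6.34 to 6.48, and that of the 3 endothelial markers 5.36 to 5.46 and 5.37 to 5.60. The part of these shifts in the results below was not tested. In bulk RNA, fewer cells that express a gene and less of its RNA per cell cannot be told apart.

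Of the 10 genes, JUNB, JUND and ATF3 were lower and EGR1 was higher in NR1D1 knockout cells, and the other 6 did not pass the test. Passing meant an adjusted p under 0.05 by limma, a linear model that shares the spread estimate across genes, with Benjamini-Hochberg adjustment over all 14884 genes. The 4 calls compare with 9.49% of all genes called, 4.74% in each direction, and control and knockout values were fully separated for 5 of the 10 genes, against 28.7% of all genes. The 4 changes were modest, from 1.29-fold for ATF3 to 1.5-fold for JUNB, and the median fold of all 1412 called genes was 1.43. The median log2 change of the 10 genes was -0.068 and that of all genes 0.0039. JUNB and JUND passed without any 1 of the 6 arrays. ATF3 missed the threshold whichever array was left out (adjusted p from 0.0738 to 0.16), and EGR1 passed only without knockout replicate 2 (adjusted p of 0.0162, and from 0.0576 to 0.0765 without any other array), so the number called was 2 or 3 with 5 arrays.

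**Figure D1:**
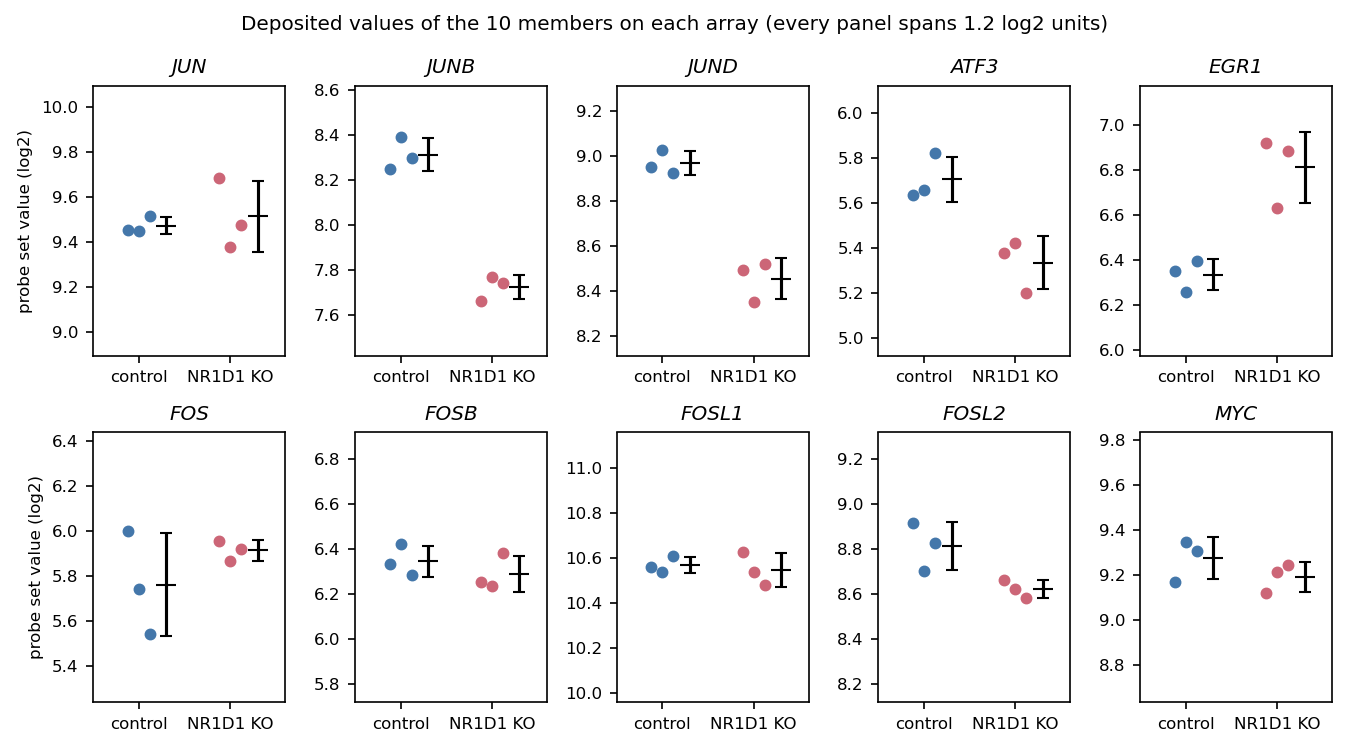
Deposited log2 values of the 10 genes (vertical axis, 1.2 log2 units in every panel) on the 3 control arrays (blue) and 3 NR1D1 knockout arrays (red), with the mean and SD of each group in black. The knockout values lie below all control values for JUNB, JUND, ATF3 and FOSL2 and above them for EGR1, and the groups overlap for the other 5 genes.

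JUNB, a Jun protein that pairs with Fos proteins and often restrains JUN at growth genes, read 8.25, 8.39 and 8.30 on the control arrays and 7.66, 7.77 and 7.74 on the knockout arrays (log2). Every knockout value was lower than every control value, and the gap between the groups was larger than the range within either. The means of 8.31 ± 0.073 and 7.72 ± 0.055 (SD, n = 3 each) differ by -0.59 ± 0.081 (SE) on the log2 scale, which is 1.5-fold lower (limma adjusted p = 0.0033). Of the 1412 genes called, 36.8% changed by more than JUNB.

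JUND, the Jun protein usually kept at a steady level in resting cells and known to protect cells from oxidative stress, read 8.95, 9.03 and 8.93 on the control arrays and 8.49, 8.35 and 8.52 on the knockout arrays. The groups did not overlap here either. The means of 8.97 ± 0.053 and 8.46 ± 0.091 (SD, n = 3 each) differ by -0.51 ± 0.084 (SE), or 1.43-fold lower (limma adjusted p = 0.0074).

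JUN, the founding member of the family and the main target of the stress kinase JNK, read 9.45, 9.45 and 9.51 on the control arrays and 9.68, 9.38 and 9.48 on the knockout arrays. Knockout replicate 1 was the highest of the 6 and knockout replicate 2 the lowest, so the groups overlapped fully. The log2 difference was 0.041, with a 95% interval of the limma fit from -0.18 to 0.26 (adjusted p = 0.861), and it turned to -0.046 without knockout replicate 1.

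The difference between Jun genes was tested on the log2 value of a pair within each array, by an exact permutation of the 6 arrays over both groups (two-sided, 20 assignments, smallest possible p of 0.1). Relative to JUN, the log2 value of JUNB changed by -0.63 ± 0.13 (SE) and that of JUND by -0.55 ± 0.085, and the groups did not overlap in either case. Both gave the smallest exact p the design allows, 0.1, or 0.15 after adjustment over the 3 pairs compared. JUNB and JUND differed in their change by -0.074 ± 0.08, with overlapping groups (exact permutation p = 0.4, adjusted 0.4). A 3 against 3 design cannot reach 0.05 in this test.

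None of the 4 Fos genes passed the limma test, and 0 of them had an unadjusted p under 0.05. FOSL2, which encodes the Fos protein FRA-2, came nearest, with 8.92, 8.70 and 8.83 on the control arrays and 8.66, 8.62 and 8.58 on the knockout arrays. Its highest knockout value lay just under its lowest control value, and the log2 difference of -0.19 ± 0.085 (SE) had an adjusted p of 0.221. The unadjusted limma p of FOSL2, 0.0505, ranked 3404 from the smallest among all 14884 genes. A p under 0.05 was thus common but not the rule, and 0 of 4 says little of the Fos genes as a family. FOSL1, which encodes FRA-1, the Fos protein most associated with this kind of breast carcinoma, read 10.56, 10.54 and 10.61 on the control arrays and 10.62, 10.54 and 10.48 on the knockout arrays. Its 6 values lay within a narrow band in both genotypes, and the 95% interval of its log2 difference ran from -0.2 to 0.16 (limma adjusted p = 0.909).

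FOS, the prototype of the early pulse, read 6.002, 5.75 and 5.54 on the control arrays and 5.96, 5.87 and 5.92 on the knockout arrays. The control arrays spread far more than the knockout arrays and enclosed them. The log2 difference was 0.15 ± 0.12 (SE, adjusted p = 0.515). A dimmer probe set of FOS pointed the other way, at -0.16 ± 0.085 (SE, unadjusted p = 0.0982), and averaging both gave -0.0035. The annotation at hand did not give the strand of a probe set. Whether the dimmer probe sets of FOS, FOSB and EGR1 read the same transcript as the brighter ones is therefore not known. FOSB, a Fos protein known for long-lasting splice forms in neurons, differed by -0.055 ± 0.084 (SE, limma adjusted p = 0.761), and its dimmer probe set by 0.013 ± 0.12. FOS read near the array medians, and the floor of an array can make the change of a dim gene too small.

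ATF3, a bZIP factor induced by many kinds of cell stress that pairs with Jun proteins, read 5.64, 5.66 and 5.82 on the control arrays and 5.38, 5.42 and 5.20 on the knockout arrays. All knockout values were lower than all control values, by a gap about as wide as the range within a group. The log2 difference of -0.37 ± 0.095 (SE), from 5.71 ± 0.1 to 5.34 ± 0.12 (SD, n = 3 each), had a limma adjusted p of 0.0461. It missed the threshold when the arrays were centred on their medians (0.0523). ATF3 was also dim.

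EGR1, a zinc finger factor that is an immediate early target of serum response factor, read 6.35, 6.26 and 6.39 on the control arrays and 6.92, 6.63 and 6.89 on the knockout arrays. All 3 knockout values were higher, with knockout replicate 2 the nearest to control. The means of 6.34 ± 0.069 and 6.81 ± 0.16 (SD, n = 3 each) differ by 0.48 ± 0.1 (SE), or 1.39-fold (limma adjusted p = 0.0215). A dimmer probe set of EGR1, at 4.72, 4.53 and 4.93 on the control and 4.76, 4.81 and 5.12 on the knockout arrays, had overlapping groups and a log2 difference of 0.17 ± 0.13 (SE). With both probe sets averaged the change was 0.32 and missed the threshold (adjusted p = 0.106). As the strand of the dimmer probe set is not known, it may not measure the EGR1 transcript.

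MYC, the growth-promoting factor that pairs with MAX, read 9.17, 9.35 and 9.31 on the control arrays and 9.12, 9.22 and 9.25 on the knockout arrays. The groups overlapped, and the 95% interval of the log2 difference ran from -0.28 to 0.11 (limma adjusted p = 0.642).

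**Figure D2:**
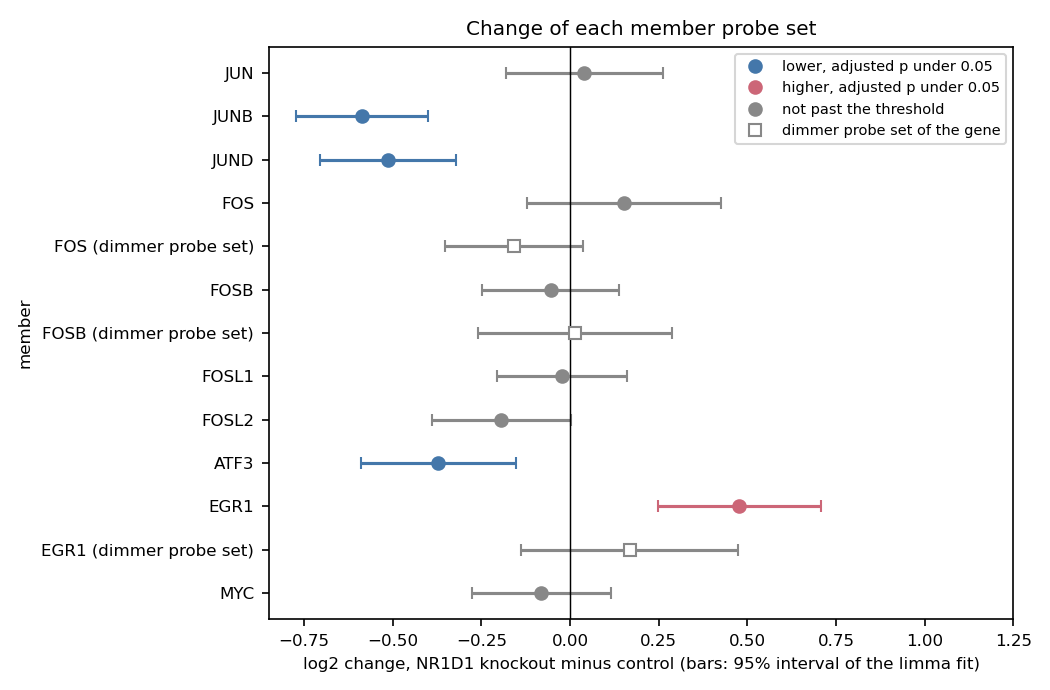
Log2 change from control to NR1D1 knockout (horizontal axis) of the 13 probe sets of the 10 genes, with the 95% interval of the limma fit. JUNB, JUND and ATF3 lie below 0 (blue), EGR1 above 0 (red), and the intervals of the other genes and of the dimmer probe sets (open squares) include 0.

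The genes next to the 4 changed genes on the chromosome were set beside them, taking the 10 nearest measured coding genes on each side. JUNB and JUND both lie on chromosome 19. All 20 neighbours of JUNB changed less downward than JUNB itself, with a median log2 change of 0.022 and 0 called by limma in either direction (2 at an unadjusted p under 0.05). JUND had 15 of 20 neighbours below 0 and a median of -0.1 (0.0039 for all genes), and 2 of them were called lower and lay below JUND. They are JAK3 and GDF15, named here after their values were seen, and GDF15, the stress cytokine gene right beside JUND, had the larger fall, -1.42. ATF3 on chromosome 1 fell among 20 neighbours with a median of 0.12, of which 4 were called higher and 1 lay below ATF3. EGR1 on chromosome 5 rose among 20 neighbours with a median of 0.055, of which 2 were called higher and 2 lay above EGR1. Among all genes 4.74% were called in each direction. At an unadjusted p under 0.05 by limma were 8 neighbours of JUND, 6 of ATF3 and 5 of EGR1. Such p-values were common in the whole set. FOSL2, at an unadjusted limma p of 0.0505, ranked 3404 from the smallest p among all 14884 genes.

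**Figure D3:**
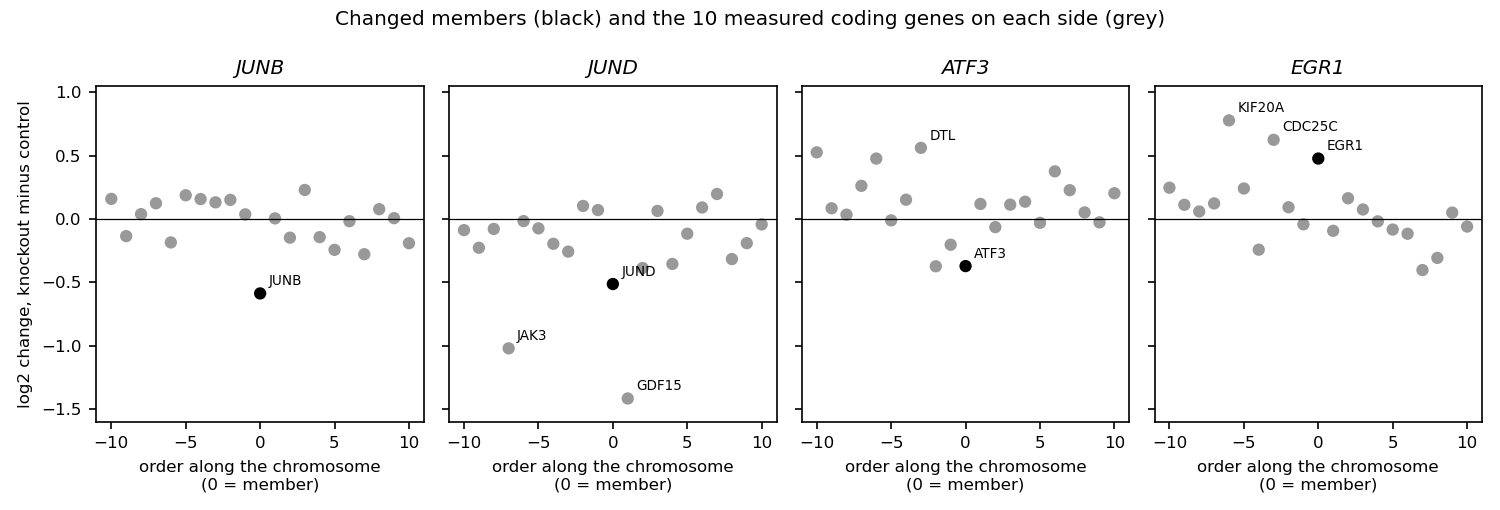
Log2 change (vertical axis) of JUNB, JUND, ATF3 and EGR1 (black) and of the 10 measured coding genes on each side in chromosome order (grey, horizontal axis in genes). JUNB lies below its 20 neighbours, and GDF15 and JAK3 lie below JUND.

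By array profile, the coding genes nearest to JUNB were MORC4 and IFIT3, which differed from it by 0.0242 and 0.0279 log2 units (root mean square over the 6 arrays, each gene centred on its own mean). Those nearest to JUND were CLDND1 (0.0459) and ADAM8 (0.0471), and those nearest to EGR1 were TROAP (0.0417) and MCM5 (0.0446). With 6 arrays in 2 groups such likeness mostly reflects a change of the same size.

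Of 25 measured bZIP partners and relatives of AP-1, among them members of the ATF, CREB, MAF and NFE2L families, 1 was called, which is 4% against 9.49% of all genes. Their median log2 change was -0.067, against 0.0039 for all genes, and 19 of the 25 had a negative value. The 1 called was DDIT3, which encodes the stress factor CHOP, from 5.33 ± 0.13 to 4.92 ± 0.14 (SD, n = 3 each), 1.32-fold lower (limma adjusted p = 0.0461). It missed the threshold whichever array was left out (adjusted p from 0.0593 to 0.14).

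Of 22 other immediate early genes measured, 1 rose and 2 fell, 13.6% against 9.49% of all genes. Of the 22, 15 were below 0 (median log2 change of -0.053, against 0.0039 for all genes). CCN2, which encodes the matricellular growth factor CTGF, read 9.57, 9.49 and 9.41 on the control arrays and 10.00, 10.26 and 10.20 on the knockout arrays, a rise of 1.58-fold (limma adjusted p = 0.0045). SGK1, the serum- and glucocorticoid-induced kinase gene, read 6.01, 5.80 and 6.17 on the control arrays and 5.20, 5.17 and 5.37 on the knockout arrays, a fall of 1.68-fold (adjusted p = 0.0049). The groups did not overlap for either gene, and both passed without any 1 array. IER3, a stress-induced survival gene, was 1.34-fold lower (adjusted p = 0.0194) and missed the threshold without knockout replicate 2 or 3 or control replicate 1 or 3 (up to 0.0785).

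Upstream of these factors, MAP kinases relay growth and stress signals to AP-1 and to the ternary complex factors at EGR1 and FOS. Of 26 measured genes of the kinase cascade, with a median log2 change of 0.0031, 1 was called, 3.85% against 9.49% of all genes. It was MAP4K4, a kinase upstream of JNK, which read 10.04, 9.98 and 10.04 on the control arrays and 9.56, 9.54 and 9.59 on the knockout arrays and so was 1.37-fold lower (limma adjusted p = 0.0073). Of 15 measured phosphatases and feedback inhibitors 1 rose and 1 fell, 13.3% against 9.49% of all genes. DUSP6, which inactivates ERK, rose 1.55-fold (8.69 ± 0.14 to 9.33 ± 0.089, SD, n = 3 each, limma adjusted p = 0.006). DUSP10, which inactivates JNK and p38, was 1.46-fold lower (10.24 ± 0.038 to 9.69 ± 0.083, adjusted p = 0.0048). MAP4K4, DUSP6 and DUSP10 passed without any 1 array, and the groups did not overlap for any of them. Of 8 measured serum response, ternary complex and corepressor genes 1 was called, 12.5% against 9.49% of all genes. It was NAB1, which encodes a corepressor of EGR1, at 7.20, 7.50 and 7.25 on the control arrays and 6.56, 6.89 and 6.76 on the knockout arrays. It was 1.5-fold lower (adjusted p = 0.0189) and missed the threshold without knockout replicate 1 or 3 or control replicate 2 or 3 (up to 0.0603).

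Genes known as AP-1 targets moved in both directions. Of 18 measured, 5 rose and 5 fell, 55.6% against 9.49% of all genes, with a median log2 change of 0.21; the list was drawn up with earlier results on CXCL8, MMP1 and VEGFA known, so this share is a description only. CXCL8, which encodes the neutrophil chemoattractant interleukin 8, read 8.28, 8.44 and 8.41 on the control arrays and 4.27, 4.24 and 4.12 on the knockout arrays, and was 18-fold lower (limma adjusted p = 2.59e-07). Its knockout values lay below the array medians, where a probe set was not shown to be above background, so the fold may be too small, and the same holds for the control values of MMP1 and all values of SPP1. HBEGF, an EGF receptor ligand gene, read 8.77, 8.71 and 8.63 on the control and 7.68, 7.85 and 7.89 on the knockout arrays, 1.86-fold lower (adjusted p = 0.00075). MMP1, the interstitial collagenase gene, went the other way, from 4.57, 4.28 and 3.97 to 5.42, 5.56 and 5.51, a rise of 2.33-fold (adjusted p = 0.0017). SPP1, the osteopontin gene, was 1.73-fold lower but dim (4.18 ± 0.19 to 3.39 ± 0.24, SD, n = 3 each, adjusted p = 0.0115). The groups of CXCL8, HBEGF and MMP1 lay far apart, and all 4 passed without any 1 array. The remaining calls, named after their values were seen, were rises of VEGFA, UHRF1, HMGA1 and EREG and falls of LIF and CD44. The calls in this list numbered 6 without knockout replicate 2 (3 rises and 3 falls), and 7 or 8 without any other array.

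**Figure D4:**
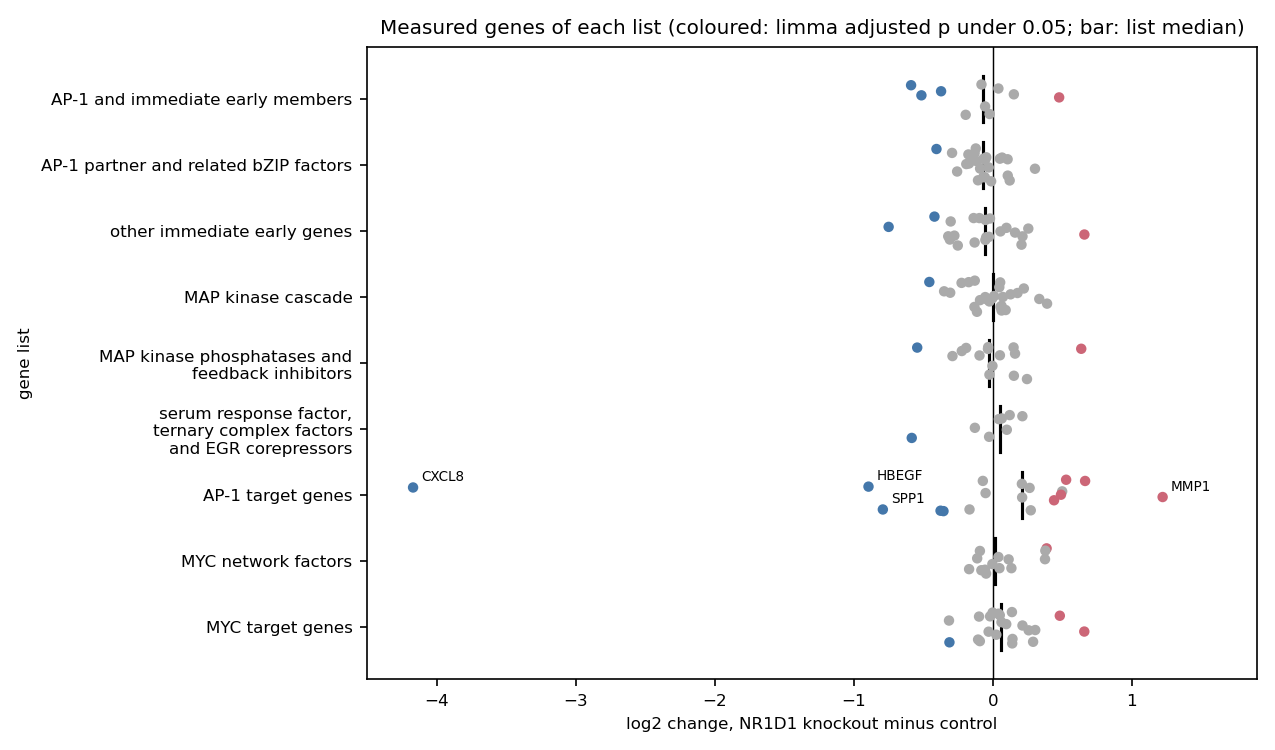
Log2 change from control to NR1D1 knockout (horizontal axis) of each measured gene in the 10 AP-1 and immediate early factors and in 8 lists of related genes, with list medians as black bars. Genes called lower by limma are blue and higher red; CXCL8 at -4.17 and MMP1 at 1.22 stand at the ends of the AP-1 target list.

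Around MYC, of 14 measured factors of its network 1 was called, 7.14% against 9.49% of all genes. MXD3, which encodes a repressor that pairs with MAX, rose 1.31-fold (limma adjusted p = 0.0463). Of 22 measured MYC target genes, with a median log2 change of 0.056, 2 rose and 1 fell, 13.6% against 9.49% of all genes. ODC1, of polyamine synthesis, rose 1.58-fold (adjusted p = 0.0361), NOP16, a nucleolar gene, rose 1.4-fold (adjusted p = 0.0481), and EIF4E, the cap-binding translation factor gene, was 1.24-fold lower (adjusted p = 0.0461). EIF4E missed the threshold whichever array was left out (adjusted p from 0.074 to 0.144), MXD3 and NOP16 missed the threshold in 5 of the 6 fits with 1 array left out (up to 0.142 for each) and ODC1 in 4 of them, without knockout replicate 2 or 3 or control replicate 1 or 3 (up to 0.118).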

How the data were processed

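Per the labels' protocols, biotin-labelled cDNA from whole-transcript amplification was put on GeneChip arrays. A table of log2 probe set values for 6 arrays, already normalized between arrays, was deposited by the authors; its software and genome build are not stated here. The log2 scale was read from the values, and an error in it would change every fold. Of 53617 probe sets, 16098 had a gene symbol in the platform annotation. The probe set with the highest mean over all arrays stood for each of 14884 genes, with no filter on dim genes. Groups, taken from the titles, were compared by limma (version 3.58.1, R 4.3.3; two-sided moderated test from lmFit and eBayes), with Benjamini-Hochberg adjustment over all genes. The fit was tested on simulated data. It recovered 42.9% of log2 changes of 0.5, 86.8% of changes of 1 and 99.1% of changes of 2. False calls were 4.3% of the calls. Recovery depends on the share of genes that change and on their spread, which in the simulation need not match these arrays. The simulated rates are therefore not taken as the power of the present comparison. A gene that was not called may still have changed by a modest amount. Among the 6 factors not called, the 95% intervals of the log2 change reached from -0.39 to 0.42. The 10 genes and all lists were chosen with earlier results of these data known. Many listed genes had no named probe set. Measured were 25 of 39 bZIP relatives, 22 of 38 other immediate early genes and 26 of 40 kinase cascade genes. So were 15 of 20 phosphatases and feedback inhibitors, 8 of 11 serum response and corepressor genes and 18 of 30 AP-1 targets. Around MYC it was 14 of 20 network factors and 22 of 36 targets. From each list up to 4 called genes with the largest change are named, and the 2 genes nearest in profile for JUNB, JUND and EGR1. Neighbours were ordered by the RefSeq table of GRCh38.p14, used for names and order only. Figures were drawn with matplotlib 3.10.9.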

Additional observations from a re-analysis of the deposited data

How the results depend on the processing

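With 1 array left out, the number of all genes called ranged from 723 to 1049 (1412 with all arrays), of the 10 factors from 2 to 3 (4) and of the 148 genes of the other lists from 12 to 18 (22), where fewer arrays leave the test less power. Testing against a fold of 1.2 with limma's treat left 333 genes, 0 of the 10 factors (3 at an unadjusted p under 0.05) and 4 list genes. The list genes called were 39 with a trend and robust prior and 40 without the dimmest 50% of genes, a filter that leaves FOS and ATF3 untested. The cause of the rise with the prior was not tested. The sign of FOS turned to -0.0035 with probe sets averaged, that of JUN to -0.00076 with array weights, and with 1 array left out JUN ranged from -0.0456 to 0.109 and FOSL1 from -0.0623 to 0.0111; none of these passed. JUNB and JUND kept their direction and passed under all alternatives except treat. With the replicate number as a block, limma called 1050 genes, 3 of the 10 factors (without ATF3, adjusted p = 0.102) and 15 list genes. The same-numbered arrays' deviations correlated at 0.0547, 0.0681 and -0.106. These values show no pairing by number, but they cannot exclude one.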
